A study of Homo sapiens with 6 samples.

Results

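The 11q13 segment described here runs from 68 to 72 Mb of chromosome 11 (hg19), a 4 Mb stretch of its long arm that holds CCND1, LTO1 (also called ORAOV1), FGF19, ANO1, FADD, CTTN and SHANK2. Its members were the ATAC-seq peaks that overlapped this stretch in any of 6 libraries, 287 of 29879 peaks in all. Peaks entered by position, and the segment itself was chosen by the peak numbers and local backgrounds of these same lists, so those values are a description and no test was made with them. In ATAC-seq the Tn5 transposase inserts adapters into open chromatin, and a peak marks a place where the resulting fragments pile up. HET-1A (libraries 1 and 2) is an esophageal epithelial line, labelled non-cancerous, that was immortalised with a viral T antigen and grown in BEBM medium. KYSE-30 (libraries 4 and 6) and KYSE-150 (libraries 7 and 8) are esophageal squamous cell carcinoma (ESCC) lines grown in RPMI/F12 with serum. No line was treated. Nothing in the labels says that the 2 libraries of a line came from separate cultures, and each line stands for 1 donor, so the spread between libraries may be technical.

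As background, 11q13 is one of the segments that are often gained in squamous cancers of the esophagus and of the head and neck. CCND1 encodes cyclin D1, which drives entry into S phase with its kinase partners. Its neighbours include the secreted growth factors FGF19, FGF4 and FGF3, the calcium-activated chloride channel ANO1, the death receptor adaptor FADD, the scaffold protein liprin-alpha encoded by PPFIA1, the actin-binding protein cortactin encoded by CTTN, and the postsynaptic scaffold SHANK2. DNA copy number was not analysed here. In called peaks, more copies of a stretch and more accessible chromatin within it cannot be told apart from the tags alone.

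The sequences below are the 200 bp around the summits of 7 peaks that the results turn on, from the hg19 plus strand. The first 3 carried a peak in both KYSE-30 libraries and also in library 2 of HET-1A, the ANO1 intron site in both KYSE-30 libraries and no other, and the KRTAP5-7 site in both HET-1A libraries and no other. The start sites of LTO1 and CCND1 had a peak in HET-1A library 2 alone. Capitals mark the AP-1 core (TGACTCA or TGAGTCA), which FOS and JUN proteins bind, or the GC box (GGGCGG or CCGCCC), which SP1 and related proteins bind, searched on both strands. A match is a description of the letters and not evidence of binding.
intergenic site between FADD and PPFIA1 (chr11:70079637-70079836): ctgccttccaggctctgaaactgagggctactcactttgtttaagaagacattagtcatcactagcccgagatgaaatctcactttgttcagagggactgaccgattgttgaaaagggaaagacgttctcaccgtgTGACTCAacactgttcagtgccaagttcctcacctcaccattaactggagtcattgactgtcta
intergenic site beyond the start of SHANK2 (chr11:71010463-71010662): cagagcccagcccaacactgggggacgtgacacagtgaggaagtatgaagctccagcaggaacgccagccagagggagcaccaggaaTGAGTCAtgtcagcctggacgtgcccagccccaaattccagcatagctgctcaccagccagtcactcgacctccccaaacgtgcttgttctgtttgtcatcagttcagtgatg
CTTN site (chr11:70245918-70246117): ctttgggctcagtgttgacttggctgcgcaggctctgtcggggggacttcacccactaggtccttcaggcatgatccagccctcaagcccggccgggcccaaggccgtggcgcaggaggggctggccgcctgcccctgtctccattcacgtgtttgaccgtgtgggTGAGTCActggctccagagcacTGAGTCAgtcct
ANO1 intron site (chr11:69938833-69939032): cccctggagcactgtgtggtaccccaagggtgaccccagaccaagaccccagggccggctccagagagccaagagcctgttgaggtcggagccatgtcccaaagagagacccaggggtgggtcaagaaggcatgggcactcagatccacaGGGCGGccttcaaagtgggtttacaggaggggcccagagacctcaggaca
KRTAP5-7 site (chr11:71236367-71236566): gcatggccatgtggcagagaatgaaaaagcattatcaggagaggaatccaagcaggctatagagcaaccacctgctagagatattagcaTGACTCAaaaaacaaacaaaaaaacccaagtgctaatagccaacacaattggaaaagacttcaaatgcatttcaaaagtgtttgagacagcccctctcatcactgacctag
LTO1 start site (chr11:69490079-69490278): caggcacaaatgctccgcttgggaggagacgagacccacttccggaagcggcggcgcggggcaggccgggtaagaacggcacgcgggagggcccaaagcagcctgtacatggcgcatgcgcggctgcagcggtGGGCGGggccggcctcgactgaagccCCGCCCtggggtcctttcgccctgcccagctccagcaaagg
CCND1 start site (chr11:69455801-69456000): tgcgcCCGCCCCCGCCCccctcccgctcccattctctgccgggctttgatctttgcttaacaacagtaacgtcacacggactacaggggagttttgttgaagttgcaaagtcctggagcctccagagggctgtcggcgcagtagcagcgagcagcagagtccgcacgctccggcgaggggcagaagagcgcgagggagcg
The AP-1 core stood in the sites between FADD and PPFIA1, beyond the start of SHANK2, at CTTN (2 copies) and near KRTAP5-7, and the LTO1 and CCND1 start sites had 2 GC boxes each and no AP-1 core. The LTO1 and CCND1 windows held 20 and 17 CpG dinucleotides, against 0 to 9 in the other 5 windows.

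Most of the called peaks in the segment came from HET-1A library 2, while HET-1A library 1, whose list was the shortest, had fewer than either KYSE-30 library. The segment held 5 and 244 peaks in libraries 1 and 2 of HET-1A, 10 and 26 in libraries 4 and 6 of KYSE-30, and 1 in each of libraries 7 and 8 of KYSE-150. The lists differed widely in length, from 168 peaks in HET-1A library 1 to 15979 in HET-1A library 2, with 1255 and 11671 in KYSE-30 libraries 4 and 6 and 547 and 259 in KYSE-150 libraries 7 and 8. As a share of the list, the segment took 2.98% in HET-1A library 1 (95% Wilson interval 1.28 to 6.78) and 1.53% in HET-1A library 2 (1.35 to 1.73). The shares were 0.797% in KYSE-30 library 4 (0.433 to 1.46) and 0.223% in KYSE-30 library 6 (0.152 to 0.326). In KYSE-150 they were 0.183% (0.0323 to 1.03) and 0.386% (0.0682 to 2.15). The segment makes up 0.129% of the genome length, so it was 23 and 11.8 times over its length share in HET-1A, 6.17 and 1.72 times in KYSE-30, and 1.41 and 2.99 times in KYSE-150. These intervals cover counting error within a list only, and the 2 values of KYSE-30 differed from each other by more than the lower of them.

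With the lists shortened to an equal number of 168 peaks of smallest p-value, HET-1A had 5 and 12 peaks in the segment, KYSE-30 had 1 and 2, and KYSE-150 had 0 and 1. Among the 4 Mb windows of the genome that held a peak, this one ranked 1st of 127 and 1st of 684 by number of peaks in the HET-1A libraries. It ranked 7th of 455 (tied with 1 other window) and 115th of 720 (tied with 9) in KYSE-30. In KYSE-150 it was last among the 282 and 140 windows, tied with 147 and 80 others that also held a single peak. Of the peaks on chromosome 11, it held 5 of 10 and 244 of 918 in HET-1A, 10 of 45 and 26 of 480 in KYSE-30, and 1 of 30 and 1 of 10 in KYSE-150.

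**Figure D1:**
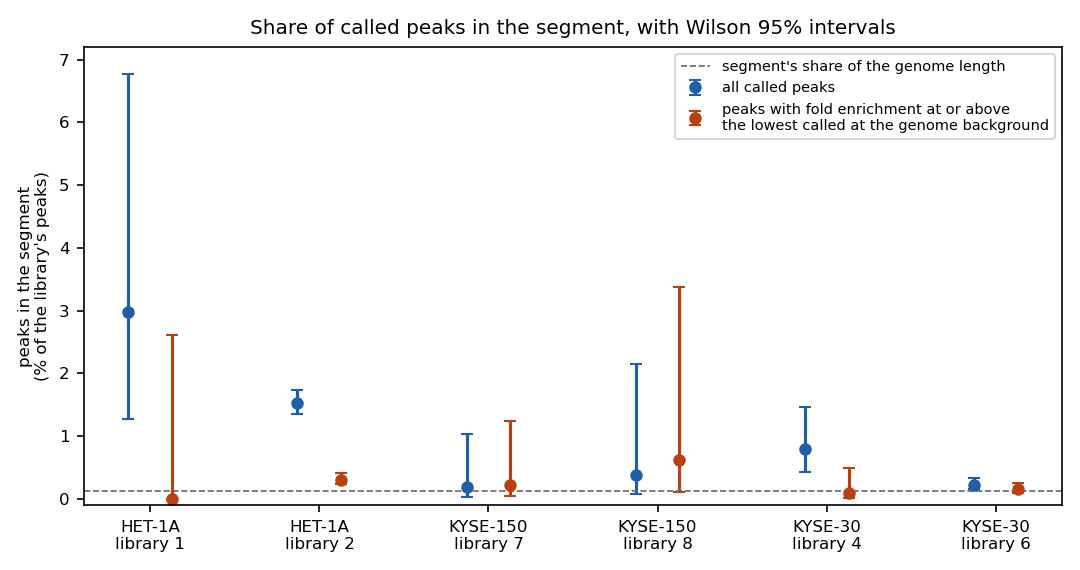
Share of each library's called peaks that lay in the segment (percent, with 95% Wilson intervals), for all peaks (blue) and for peaks with a fold enrichment at or above the lowest that was called at the genome background of the library (red). The dashed line is the segment's share of the genome length, 0.129%. The blue points of HET-1A stand at 2.98% and 1.53%, and the red ones at 0% and 0.306%.

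Most segment peaks of HET-1A and KYSE-30, and neither of the KYSE-150 peaks, stood on a raised local background. The fold enrichment of a peak divides the summit tags by the local background after adding 1 to both. Its median in the segment was 2.70 and 1.97 for HET-1A, 2.57 and 4.01 for KYSE-30, and 3.75 and 3.94 for the single peaks of KYSE-150. The other peaks of the same libraries had medians of 4.69 and 4.24, of 4.29 and 5.48, and of 4.07 and 4.20. The segment was therefore lower than the rest of the list in the 6 libraries, by the least in KYSE-150. Tags at the summit went the other way. Their median in HET-1A was 36 in the segment against 16 elsewhere in library 1, and 106 against 25 in library 2. In KYSE-30 it was 45.5 against 18 in library 4, and 32 against 17 in library 6. In KYSE-150 the 2 peaks had 19 and 25 tags, against medians of 20 and 22.

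The relative background puts the local background of a peak over the genome background, the smallest local background found in that library. In tags per 200 bp, HET-1A had genome backgrounds of 1.88 and 3.34, KYSE-30 of 2.36 and 1.49 and KYSE-150 of 2.80 and 2.64. The median relative background of the segment peaks was 6.96 and 15.3 for HET-1A, 7.36 and 5.82 for KYSE-30, and 1.55 and 2.12 for KYSE-150. Over the rest of chromosome 11 it was 1.88 and 1.72, 1.21 and 1.22, and 1.45 and 2.47 in the same order. HET-1A and KYSE-30 stood well above the rest of the chromosome in both libraries, and the single peaks of KYSE-150 lay close to it. A relative background of at least 4 was found for 4 of 5 and 235 of 244 segment peaks in HET-1A, beside 11.9% and 6.31% of all peaks of those libraries. It was found for 9 of 10 and 19 of 26 in KYSE-30, beside 6.69% and 1.34%, and for none of the 2 peaks in KYSE-150, beside 4.76% and 8.91%. On the rest of chromosome 11, 7 of 674 peaks of HET-1A library 2 reached 4, as did 0 of 454 peaks of KYSE-30 library 6.

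Neither limit of the segment lay in a raised stretch. In HET-1A library 2 the last peak before it had a fold enrichment of 3.88 on a relative background of 2.32 and the first inside 3.68 on 3.03, while the last inside had 3.91 and the first after it 4.60, both on 1.00. In KYSE-30 library 6 the last before had 4.05 on 1.65, the first inside 5.04 on 1.20, the last inside 4.92 on 1.1, and the first after 4.42 on 1.00.

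The local background can include the tags of called peaks nearby. With an upper bound of what the called peaks within 5 kb add to it taken off, the median relative background of the segment was 6.61 and 13.4 for HET-1A, 6.93 and 5.26 for KYSE-30, and 1.42 and 1.93 for KYSE-150. The number of peaks at 4 or above was then 4 and 227 in HET-1A and 9 and 19 in KYSE-30. Local background was read at called peaks alone, so a stretch without a peak has no value.

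**Figure D2:**
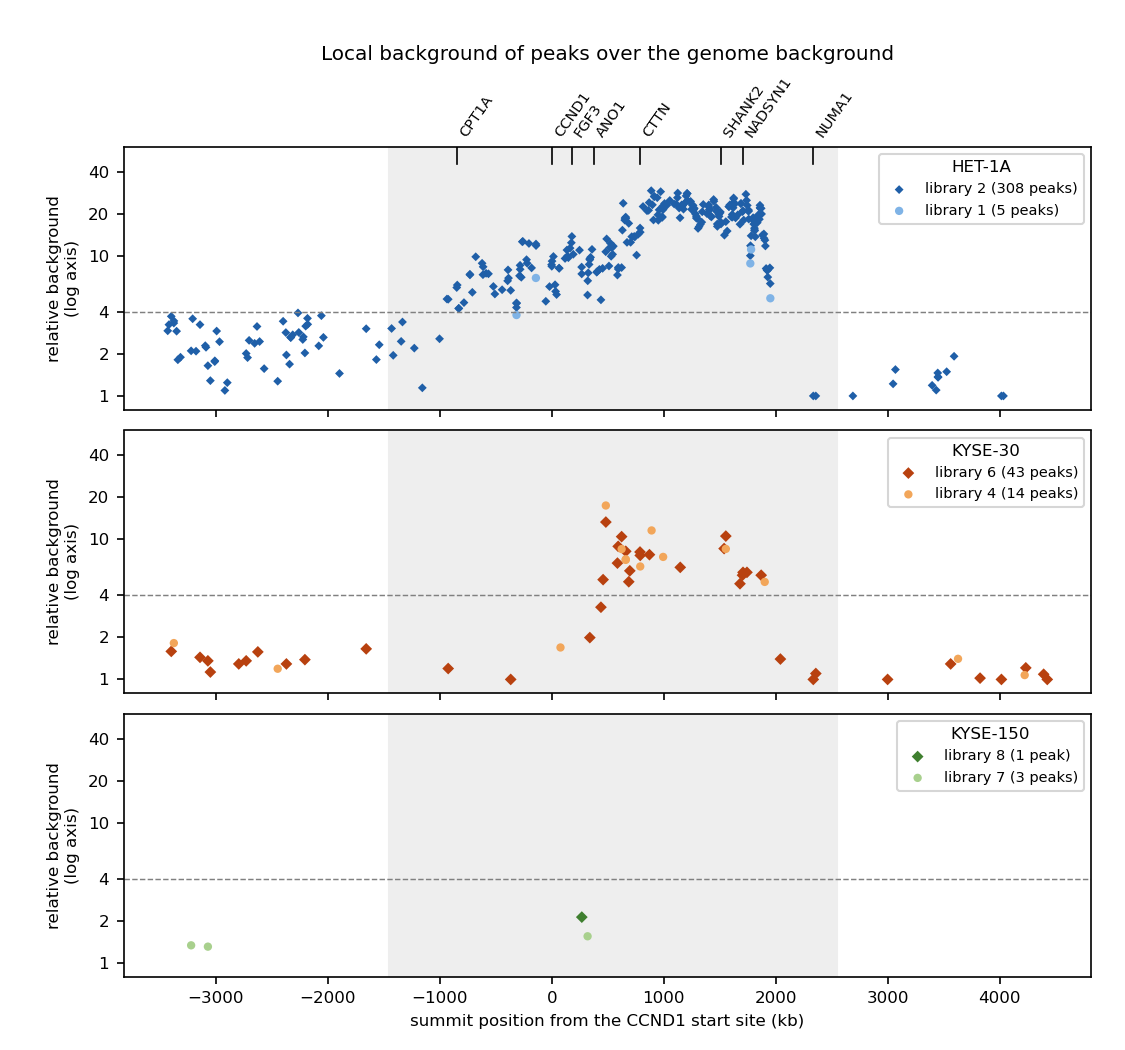
Relative background of each peak (log axis) by the position of its summit from the CCND1 start site (kb), in HET-1A, KYSE-30 and KYSE-150, from 2 Mb before the segment to 2 Mb after it. Gray marks the segment, the dashed line a relative background of 4, and ticks at the top the start sites of 8 genes. HET-1A library 2 rises near CPT1A, is highest over SHANK2 at up to 29.2 and falls to 1.00 at NUMA1, and KYSE-30 rises at ANO1.

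The raised stretch was longer in HET-1A than in KYSE-30, and CCND1 lay in that of HET-1A library 2. Those of KYSE-30 began beyond CCND1. The nearest peaks to the CCND1 start site were 77.6 kb away in KYSE-30 library 4 and 340 kb in library 6, so KYSE-30 gives no background at the gene. In HET-1A library 2 it ran from chr11:68519052 to chr11:71407693, over 2.89 Mb and 235 peaks, with 0 peaks under 4 in between. The last peak before it, at GAL, had a relative background of 2.56, and the first peak after it, at NUMA1 and 384 kb farther on, had 1.00. In HET-1A library 1 the 4 raised peaks reached from chr11:69313867 to chr11:71408305. That list's last raised peak lay within 1 kb of the last one of library 2. Its peak nearest to the CCND1 start site was 142 kb away, so it gives no background at the gene. The next peak after the stretch lay 22563 kb on in HET-1A library 1 and 1727 kb on in KYSE-30 library 4, so those ends are coarse. In KYSE-30 library 6 the stretch ran from chr11:69914133 to chr11:71326379 with 19 peaks, and in KYSE-30 library 4 from chr11:69938549 to chr11:71358174 with 9 peaks, again with 0 peaks under 4 in between. These are 1.41 and 1.42 Mb, and both began within ANO1. The next KYSE-30 peak before the stretch, 19.0 kb away in library 6 and also within ANO1, had a relative background of 3.28. The one before it had 1.99. The single peak of library 4 before the stretch, 14.8 kb from FGF19, had 1.69. KYSE-150 had no peak at 4 or above.

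Within HET-1A library 2 the background rose along the chromosome and then fell. The 4 stretches compared next were cut after the values were seen. The 7 peaks from 68 to 68.5 Mb had a median relative background of 2.45, the 60 peaks from 68.5 to 69.75 Mb 7.73, the 175 peaks from 69.75 to 71.5 Mb 18.9, and the 2 peaks from 71.5 to 72 Mb 1.00. Median fold enrichment ran the other way, at 3.68, 2.41, 1.82 and 4.60. The density of peaks was 14, 48, 100 and 4 peaks per Mb over these 4 stretches. In bins of 250 kb there was no step at 69.75 Mb, where the median relative background was 9.98 before and 9.40 after. It went from 5.21 to 13.8 over 7 bins, was 22.5 in the next and was highest, at 23.2, in a bin within SHANK2. In KYSE-30 library 6 the 2 peaks from 68.5 to 69.75 Mb had 1.00 and 1.20, and the 22 peaks from 69.75 to 71.5 Mb a median of 6.14. In the 2 Mb just before the segment, the bins of HET-1A library 2 had medians of 1.45 to 3.15.

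At a given q-value, a lower fold enrichment passes where more tags are counted, so a raised background lets weaker peaks into the list. At the genome background (relative background up to 1.1), the lowest fold enrichment called was 3.82 and 2.81 for HET-1A, 3.43 and 3.46 for KYSE-30, and 3.55 and 3.85 for KYSE-150. At or above that value stood 0 of 5 and 45 of 244 segment peaks in HET-1A, 1 of 10 and 18 of 26 in KYSE-30, and the single peak of each KYSE-150 library. Outside the segment 87.7% and 93.2% of the HET-1A peaks, 91.0% and 99% of the KYSE-30 peaks and 82.6% and 63.2% of the KYSE-150 peaks did so. Among peaks at or above it, the segment's share was 0% and 0.306% (0.229 to 0.409) for HET-1A, 0.0882% and 0.156% for KYSE-30, and 0.221% and 0.610% for KYSE-150, the last 2 from 1 peak each. The value of HET-1A library 2 lay within the intervals of both KYSE-150 libraries (0.0391 to 1.24 and 0.108 to 3.37) and of KYSE-30 library 4 (0.0156 to 0.498), and above that of KYSE-30 library 6 (0.0986 to 0.246). Over all peaks it had lain within the interval of KYSE-150 library 8 alone among the KYSE libraries. The interval of HET-1A library 1 held it both over all peaks (1.28 to 6.78) and at or above that fold enrichment (0 to 2.62).

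**Figure D3:**
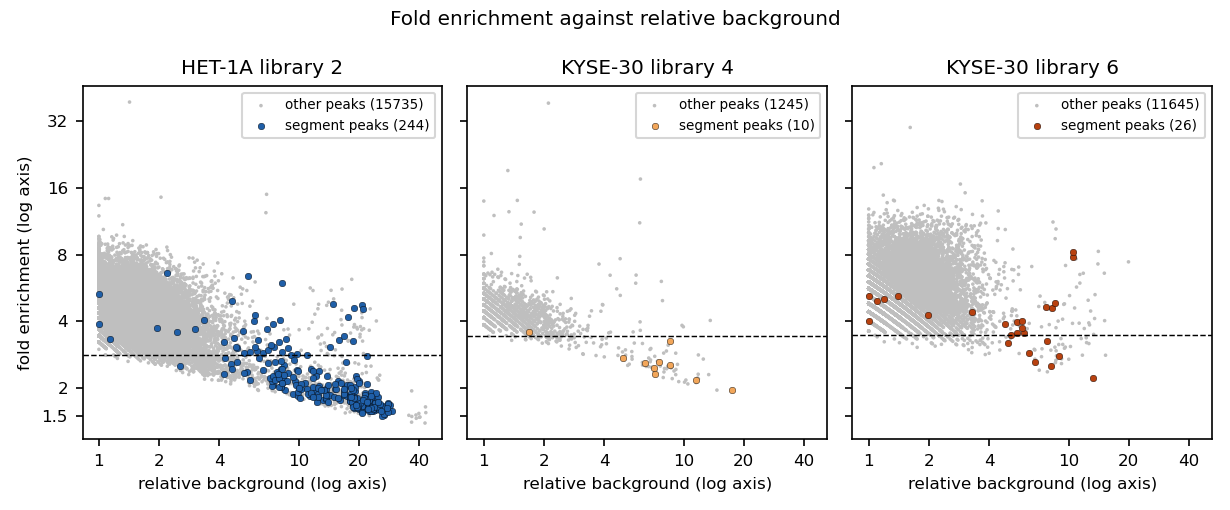
Fold enrichment against relative background (both log axes) for the segment peaks (coloured) and all other peaks (gray) of HET-1A library 2 and KYSE-30 libraries 4 and 6. The dashed line is the lowest fold enrichment called at the genome background of the library, 2.81, 3.43 and 3.46. In HET-1A library 2, 199 of the 244 segment peaks lie below it.

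Of the 48 protein-coding genes that start in the segment, 32 had a peak within 3 kb of a start site (a promoter peak) in HET-1A library 2, 66.7% (52.5 to 78.3) beside 35.4% of all coding genes. HET-1A library 1 had 1 such gene, beside 0.0942%, KYSE-30 library 4 had 2, beside 3.87%, and KYSE-30 library 6 had 10, beside 28.7%. KYSE-150 had none, beside 1.79% and 0.362%. A share of 20.8% (11.7 to 34.3) in KYSE-30 library 6 was below that of all genes, with the background inside the interval. The other 16 genes had no promoter peak in any library. Start sites of all transcripts were counted, also those inside a gene. Of 25 further genes of the segment taken from a list, HET-1A had a promoter peak at 1 and 17 in libraries 1 and 2, KYSE-30 at 1 and 4 in libraries 4 and 6, and KYSE-150 at 0. Several genes share a peak: MRPL21 with IGHMBP2, NUMA1 with LRTOMT and LRRC51, and LAMTOR1 with TOMT. The chance that a peak is called varies with depth and local background, so these counts were not read as open and closed promoters.

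The cell-cycle gene CCND1 (chr11:69455924-69469242) had 3 promoter peaks in HET-1A library 2 and none in the other 5 libraries. Their fold enrichment was 3.34 at 1.9 kb before the start site, 2.53 over it (chr11:69455783-69456013, the sequence printed above) and 2.81 within the gene, on relative backgrounds of 8.43 to 9.18. The last 2, at 2.534 and 2.808 with more digits, were below the 2.814 that was the lowest called at the genome background. The nearest peak to the CCND1 start site was 77.6 kb away in KYSE-30 library 4, 142 kb in HET-1A library 1, 268 and 320 kb in KYSE-150 libraries 8 and 7, and 340 kb in KYSE-30 library 6. LTO1, whose product acts in iron-sulfur protein assembly, had the second highest fold enrichment of the segment in HET-1A library 2. It was 6.41 at the start site (chr11:69489831-69490364) on a relative background of 5.58, with 125 tags.

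The ligand genes were near the median fold enrichment of all segment peaks of HET-1A library 2, 1.97. FGF19, which signals to the liver in bile acid control, had 1 promoter peak in HET-1A library 2 with a fold enrichment of 2.04, on a relative background of 8.19. FGF4 and FGF3, growth factors of the embryo, had 1.98 and 1.89 there on relative backgrounds of 11 and 13.8. The 3 were among the 199 of 244 segment peaks of that library below 2.81, the lowest fold enrichment called at the genome background. The other libraries had no promoter peak at these 3 genes.

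The channel gene ANO1 (chr11:69832013-70035636) had 14 peaks within the gene in HET-1A library 2, with fold enrichments of 1.73 to 3.07 and relative backgrounds of 4.86 to 13.2. Its 1 promoter peak there, of 2.39, lay at a start site inside the gene. The summit was 530 kb from the CCND1 start, against 376 kb for the start of ANO1. KYSE-30 library 6 had 3 peaks within ANO1 and KYSE-30 library 4 had 1. The 2 KYSE-30 libraries met at an intron site (chr11:69938549-69939003), where the fold enrichment was 1.96 and 2.21, the lowest of either list in the segment, on their highest relative backgrounds, 17.5 and 13.3. HET-1A and KYSE-150 had no peak that overlapped it. A peak of HET-1A library 2 lay just before it (chr11:69937809-69938068), with a fold enrichment of 2.12 on a relative background of 10.7.

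FADD, which links death receptors to caspases, had a start-site peak in HET-1A library 2 with a fold enrichment of 4.04 and 112 tags, and in KYSE-30 library 6 with 2.80 and 39 tags. The relative backgrounds were 8.06 and 8.93. Beyond it, about 30.0 kb from FADD and in no gene, lay the intergenic site printed first (chr11:70079358-70080050). Its fold enrichment was 5.94 in HET-1A library 2 and 3.26 and 7.78 in libraries 4 and 6 of KYSE-30, with 169, 68 and 128 tags. The relative backgrounds, 8.26, 8.53 and 10.5, were close to each other. In both KYSE-30 libraries its fold enrichment was the second highest of the segment.

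The promoter of PPFIA1 had a region shared by HET-1A library 2 and both KYSE-30 libraries (chr11:70115969-70116966). Its highest fold enrichment was 4.59, 2.46 and 4.61, with 294, 43 and 60 tags. CTTN (chr11:70244510-70282690) had a shared region within the gene (chr11:70245528-70246234), 881 bp from the nearest start site of any of its transcripts, with fold enrichments of 4.80, 2.60 and 4.66 and 241, 41 and 57 tags in the same order. Its relative background was 14.8 in HET-1A library 2 and 6.41 and 7.69 in KYSE-30. Of the 7 genes that define the segment, CTTN was the one with a promoter peak in both KYSE-30 libraries.

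SHANK2 (chr11:70313959-70963623) is the longest coding gene of the segment, at 650 kb, and held 68 peaks in HET-1A library 2. NADSYN1, at 71.0 kb, held 10, which is more for its length. The 68 peaks within SHANK2 had fold enrichments of 1.5 to 3.27 on relative backgrounds of 15.7 to 29.2, the highest of the segment. SHANK2 had 10 promoter peaks in HET-1A library 2, and the highest of them, 2.07, lay at a start site inside the gene. KYSE-30 libraries 4 and 6 had 2 peaks each within SHANK2, with fold enrichments of 2.18 and 2.61 and of 2.88 and 3.26. The intergenic site 46.7 kb beyond its start (chr11:71010318-71010958) was the strongest of KYSE-30 library 6 in the segment, with a fold enrichment of 8.19 and 136 tags, and had 4.20 and 250 tags in HET-1A library 2 and 2.54 and 53 tags in KYSE-30 library 4.

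Farther along, the start sites of DHCR7 (the last enzyme of cholesterol synthesis) and NADSYN1 (NAD synthesis) had fold enrichments of 4.76 and 4.56 in HET-1A library 2, with 334 and 324 tags, the highest tag numbers of the segment. In KYSE-30 library 6 they had 4.0 and 3.73 with 36 and 35 tags. The KRTAP5 genes, which encode keratin-associated proteins in near-identical copies, had promoter peaks of 1.83 to 2.64 in HET-1A library 2. Reads there can fit several copies, and how such reads were treated is not given in the sources used here. At the edges of the segment, outside the raised stretch, PPP6R3 (a phosphatase subunit) had the highest fold enrichment of HET-1A library 2 in the segment, 6.59 on a relative background of 2.2. NUMA1 (a spindle protein) had 5.30 in HET-1A library 2 and 5.23 in KYSE-30 library 6, and LAMTOR1 (a lysosomal anchor) had 3.91 and 4.92, all on relative backgrounds of 1.0 to 1.1. Inside the raised stretch, the start sites of MRPL21 and IGHMBP2 had 4.96 on a relative background of 4.64, in HET-1A library 2 alone. A start site of CPT1A, which brings fatty acids into mitochondria, had 4.02 on 5.95, also in that library alone.

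**Figure D4:**
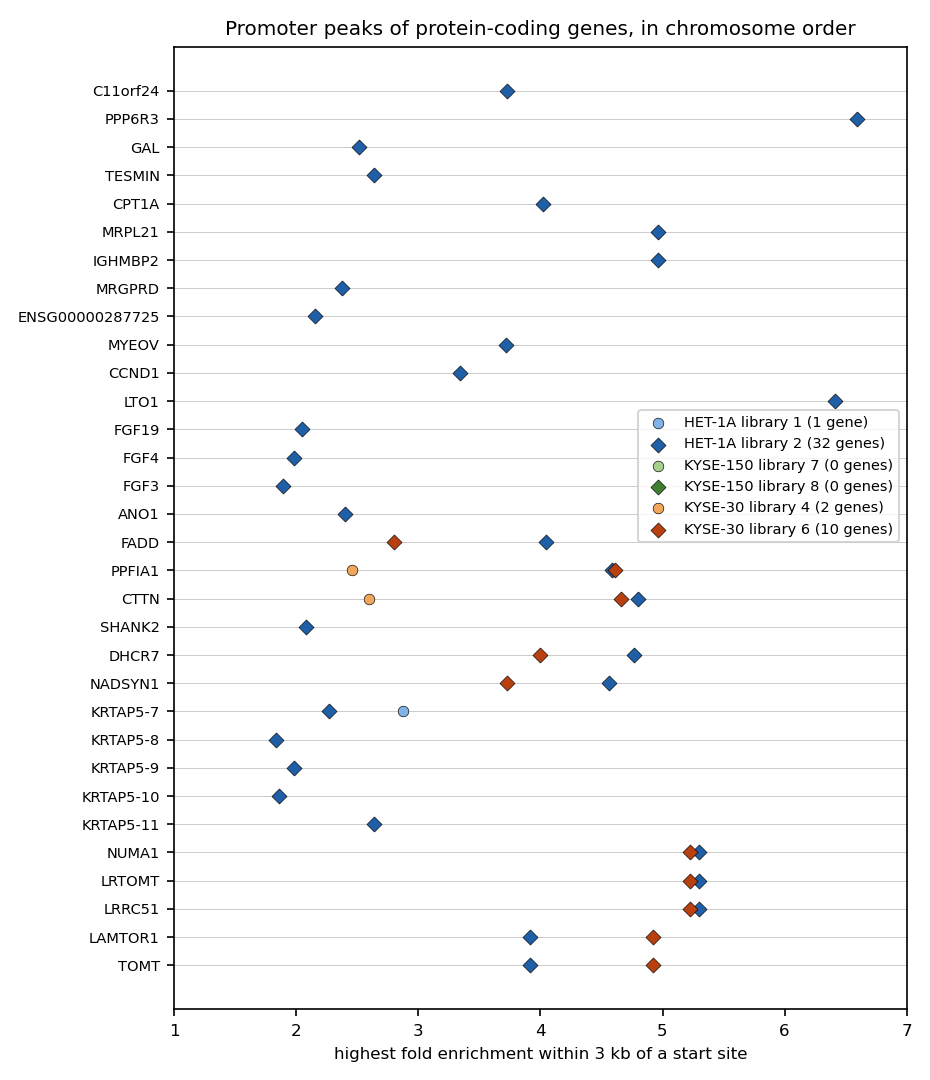
Highest fold enrichment of a promoter peak (within 3 kb of a start site) for the 32 protein-coding genes of the segment that had one, in chromosome order, by library. The values of HET-1A library 2 reach from 1.83 to 6.59, KYSE-30 library 6 has 10 genes, from FADD to TOMT, and KYSE-150 none.

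Joined across libraries by 1 bp of overlap, the peaks made 257 regions in the segment, of 23972 in the genome. HET-1A alone, in either library, had 225 of them, 87.5% (83.0 to 91.0) beside 47.2% of all regions, and library 2 of HET-1A had a peak in 244 (beside 66.5%) against 5 in library 1 (beside 0.697%). KYSE-30 had a peak in 9 regions in library 4 (beside 5.19%) and in 26 in library 6 (beside 48.6%). KYSE-30 alone had 11, beside 31.2%, and both HET-1A and KYSE-30 had 19, beside 19.5%. No region had a peak in the 3 lines, beside 0.859%, 0 were found in KYSE-150 alone, beside 1.59%, and 4 had a peak in at least 3 libraries, beside 2.92%. The 2 KYSE-150 peaks, one 56.2 kb from ANO1 and one 89.8 kb from FGF3, each overlapped a peak of HET-1A library 2, whose fold enrichment was 3.61 and 2.28 against 3.75 and 3.94 in KYSE-150.

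Few regions were called in both libraries of a line. Both HET-1A libraries had a peak in 3 regions, beside 0.192% of all regions, and no other line had one there, beside 0.0626%. These lay in the first intron of MYEOV (chr11:69140576-69141204, fold enrichment 3.69 and 2.57), in an intron of NADSYN1 (chr11:71229248-71229513, 2.38 and 2.0) and near KRTAP5-7 (chr11:71236329-71237080, 2.87 and 2.27). Both KYSE-30 libraries had a peak in 5 regions, beside 2.91%, of which 4 also had one in HET-1A library 2, beside 2.13%, and 1, within ANO1, was in KYSE-30 alone, beside 0.726%. Both KYSE-150 libraries had a peak in 0 regions, beside 0.259%, and 0 lay in that line alone, beside 0.0459%. Of the HET-1A library 1 peaks in the segment 3 of 5 overlapped library 2, against 27.0% elsewhere, and of the KYSE-30 library 4 peaks 6 of 10 overlapped library 6, against 56.2% elsewhere.

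In the 18 regions shared by HET-1A library 2 and KYSE-30 library 6, the fold enrichment was higher in KYSE-30 in 11, with medians of 3.68 in HET-1A and 4.16 in KYSE-30. The relative background was higher in HET-1A in 15, with medians of 12.1 and 5.55, and tags over the genome background in 13, with medians of 42.8 and 21.2. The fold-enrichment order did not hold with the other KYSE-30 library. In the 5 regions that HET-1A library 2 shared with KYSE-30 library 4, fold enrichment was higher in KYSE-30 in 1, with medians of 4.59 in HET-1A and 2.60 in KYSE-30. Relative background was higher in HET-1A in 4 of them (medians 17.6 and 7.5), and tags over the genome background in 5 (72.1 and 20.3). Each comparison rests on the same HET-1A library. Of the KYSE-30 library 6 peaks in the segment 69.2% overlapped HET-1A library 2, against 39.1% elsewhere. In the other direction, 7.38% of the segment peaks of HET-1A library 2 overlapped KYSE-30 library 6, against 29.0% elsewhere.

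**Figure D5:**
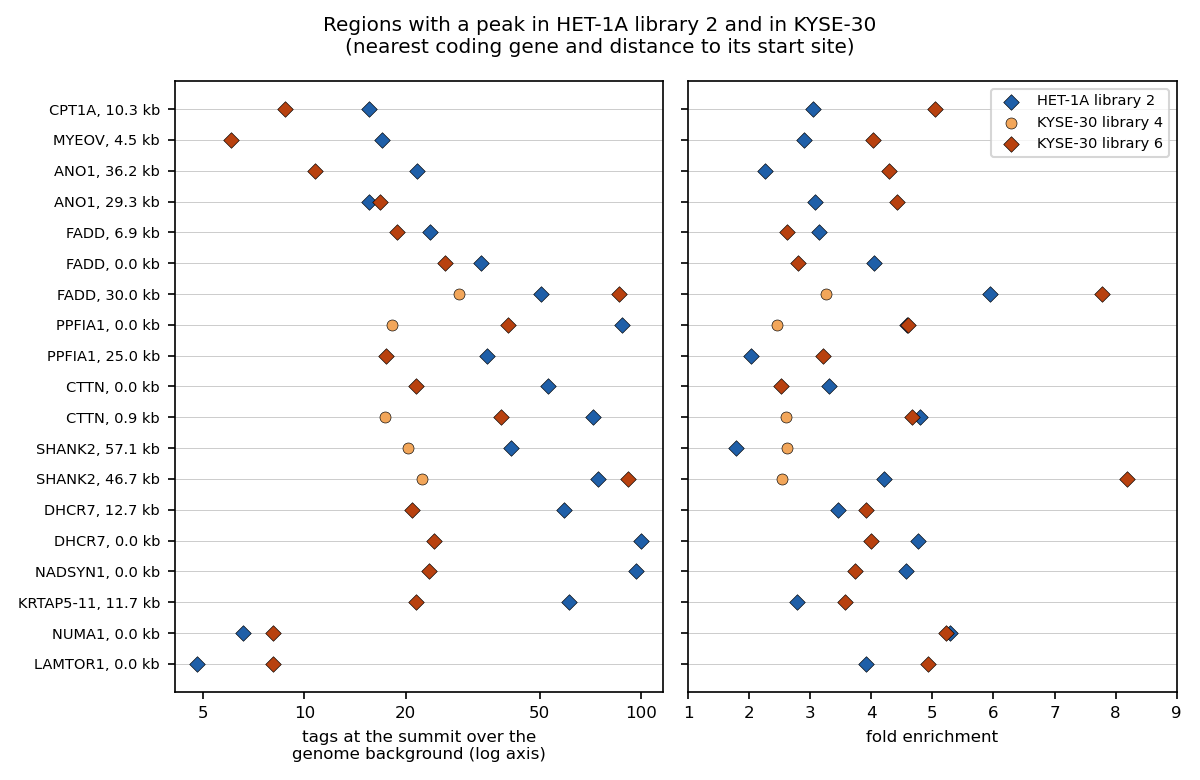
The 19 regions that HET-1A library 2 shared with KYSE-30, in chromosome order and named by the nearest coding gene and the distance to its start site, with the tags at the summit over the genome background (left, log axis) and the fold enrichment (right). Points are HET-1A library 2 and KYSE-30 libraries 4 and 6. The site 46.7 kb from SHANK2 and the one 30.0 kb from FADD have the highest fold enrichments, 8.19 and 7.78 in KYSE-30 library 6.

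By annotation, promoters took 36.5% (30.7 to 42.7) of the HET-1A library 2 peaks in the segment against 53.4% elsewhere, introns 35.2% against 24.5%, and distal intergenic sequence 25.4% against 18.0%. In KYSE-30 libraries 4 and 6, promoters took 4 of 10 and 11 of 26, against 63.9% and 55.1%. The peaks of HET-1A library 2 were often wide, with 20.9% of at least 500 bp against 6.65% elsewhere. The median GC content around the summit was 57.0% in the segment and 55.5% elsewhere. The AP-1 core stood in 39 of 244 (16%, 11.9 to 21.1) of the HET-1A library 2 peaks in the segment against 24.9% elsewhere, in 8 of 26 of the KYSE-30 library 6 peaks against 29.7%, and in 4 of 10 of the KYSE-30 library 4 peaks against 12.7%. Within 200 bp around the summit of peaks outside promoters it stood in 12.9% (8.51 to 19.1) against 32.6% in HET-1A library 2, and in 5 of 15 against 42.7% in KYSE-30 library 6. KYSE-30 library 4 went the other way for this measure, with 3 of 6 against 18%. HET-1A library 1 did not, with 0 of 4 against 5.88%, though over whole peaks it had 1 of 5 against 4.91%. In KYSE-150 libraries 7 and 8 the single peak had no AP-1 core, against 6.22% and 2.22% for this measure. The GC box stood in 12.7% (9.10 to 17.5) of the 200 bp windows of HET-1A library 2 against 29.5% elsewhere, and in 7 of 26 against 28.3% in KYSE-30 library 6.

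As a check of the labelled tissue, 4 of 10 epithelial marker genes had a promoter peak in HET-1A library 2 (KRT6A, KRT8, KRT18 and EPCAM), 2 in KYSE-30 library 6 (KRT8 and EPCAM) and 0 in the 4 other libraries, whose lists were the shortest. Beside the 35.4% and 28.7% of all coding genes in those libraries, these counts do not set the epithelial markers apart. The immune, endothelial and fibroblast markers had none in the 6 libraries. KRT5, KRT14 and TP63, which mark squamous basal cells, had no promoter peak in any library.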

How the data were processed

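ATAC-seq peak lists of 6 libraries were analysed, 2 for each of 3 lines. The authors trimmed the reads, mapped them to hg19 (Bowtie2 2.3.3.1), marked duplicates (Picard 2.2.1), left out blacklisted regions (bedtools 2.7.1), corrected for the Tn5 offset, used fragments under 100 bp and called peaks for each library alone (MACS2 2.1.0.20160309, q-value 0.05, tags extended to 200 bp). The deposited lists hold for each peak a fold enrichment (a ratio), a score (10 times −log10 q), and −log10 values of p and q. Read totals are unknown from these lists.

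Tags and local background at each summit were recovered from the fold enrichment and the p-value (Poisson, tolerance 0.001 on −log10 p), which worked for 99.6 to 100% of the peaks of a library and for 100% of 300 simulated peaks per library. MACS2 averages tags over 10 kb for the local background and never goes below the genome background, taken here as the smallest value of a library.

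Genes came from GENCODE 44 lifted to hg19. Chromosome names matched and 0 peaks lay beyond a chromosome end. Sequences were read from the hg19 genome. Tools were pysam 0.24.0, scipy 1.17.1, matplotlib 3.10.9, pandas 2.3.3 and numpy 2.4.6 under Python 3.11.15. Shares have Wilson 95% intervals, for counting error only.

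Named were the 7 genes that define the segment, other coding genes with a promoter peak, regions with a peak in both libraries of a line, and the 3 peaks of highest fold enrichment per library. Some peaks at these genes and the sites with printed sequence were picked after their values were seen. Members and gene lists were chosen with earlier results of these data known. No test between lines was run, since 2 libraries against 2 cannot give an exact two-sided permutation p under 0.33 and the segment was chosen from these data. Alternatives were a stricter q-value, equal list lengths, CCND1 to SHANK2 alone, a 50% overlap, a peak in 1 library sufficing, leaving out each library in turn, other references for background and share, and other promoter rules. The restriction by fold enrichment and the removal of called peaks from the background were chosen after seeing the data.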

Additional observations from a re-analysis of the deposited data

How the results depend on the processing

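The values here are means of the 2 libraries of a line. In the order HET-1A, KYSE-150, KYSE-30, the share of peaks in the segment was 2.25%, 0.284% and 0.510%, the median relative background 11.1, 1.84 and 6.59, the promoter share 28.2%, 0% and 41.2%, and the share with the AP-1 core 18.0%, 0% and 35.4%. Regions with a peak in both libraries of a line numbered 3, 0 and 5, and those in no other line 3, 0 and 1. Of the alternative values, 120 moved by less than the spread between libraries (counts by less than 1.5 times) and 45 moved further. The former include the means of 2 libraries with 1 left out. Those always move by less than that spread, so they say nothing on stability. The order of the lines changed for some of these measures. Without HET-1A library 1, the regions of the remaining HET-1A list numbered 244, over the 5 of KYSE-30, but such a count needs only 1 list. Without KYSE-30 library 4, the KYSE-30 share of 0.223% was under that of KYSE-150. The median fold enrichment of KYSE-30 was then 4.01, over the 3.84 of KYSE-150, against 3.29 with both KYSE-30 libraries. At or above the lowest fold enrichment called at the genome background, the share was highest in KYSE-150, at 0.415%, with 0.122% in KYSE-30. With a q-value under 0.001, HET-1A was no longer below KYSE-30, which had a promoter share of 41.7% and an AP-1 share of 33.3%. Most of the 5 segment peaks of HET-1A library 1 drop out at that limit, since their median −log10 q was 2.81. The few left weigh as much in the HET-1A mean as all those of library 2, so this change of order rests on few peaks. Line-specific regions became more numerous in KYSE-30 than in HET-1A from CCND1 to SHANK2 alone (1 against 0) and without either KYSE-30 library (8 or 4 against 3). HET-1A library 1 had no peak from CCND1 to SHANK2, so that 0 was fixed in advance.

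With a q-value under 0.001 HET-1A had a promoter share of 42.8% and an AP-1 share of 33.5%, as means that include the few peaks left in its library 1. With 168 peaks per library its share rose to 5.06%, its regions in both libraries and in no other line fell to 0 and 0, and those of KYSE-30 to 1 and 0. From CCND1 to SHANK2 alone HET-1A library 1 had no peak. The HET-1A share of 0.410% there is a mean with 0 for that library. The relative background of 18.5 and the AP-1 share of 13.7% were those of HET-1A library 2 alone. The 0 and 0 such regions of HET-1A followed from the empty list. KYSE-30 had a promoter share of 42.9%. With a 50% overlap the regions were 1 and 1 in HET-1A and 3 and 0 in KYSE-30. With a peak in either library, line-specific regions were 225 in HET-1A and 11 in KYSE-30. As a share of chromosome 11 the lines had 38.3%, 6.67% and 13.8%. Against the median background of the library the relative background was 1.17 in KYSE-150 and 4.61 in KYSE-30, and against the rest of chromosome 11 it was 0.965 and 5.42. With a 1 kb promoter the promoter share was 8.40% for HET-1A and 30.4% for KYSE-30, and with start sites of coding genes alone 30.4% in KYSE-30. At or above the lowest fold enrichment called at the genome background, the HET-1A share fell to 0.153%, with 0 and 0 such regions in that line as well as in KYSE-30.

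Leaving out 1 library leaves a line with a single list. Regions of the remaining list were then 5 to 244 in HET-1A, 1 in KYSE-150 and 9 to 26 in KYSE-30, and line-specific ones 5 to 223 in HET-1A and 4 to 8 in KYSE-30. HET-1A library 2 decides the first of these, with 5 regions without it. No paired analysis was possible because the lines share no replicate number and no result comes from a test. The cause of these changes was not tested. The short lists of HET-1A library 1 and KYSE-150 limit what their few segment peaks can show, and local background has no value where no peak was called.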
